A study of Mus musculus with 2 samples.

Results

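A set of 10 genes of the JAK-STAT pathway was followed in Trmt6 WT and Trmt6 cKO haematopoietic stem and progenitor cells (HSPCs): Socs1, Socs2, Socs3, Cish, Stat3, Stat5a, Stat5b, Jak1, Jak2 and Pim1. These 10 genes, of the 27998 in the count matrices, were chosen by symbol, with their difference between the libraries over all cells already known from an earlier analysis of the same matrices, so that difference is described here and supports nothing. All 10 symbols were found in both matrices. Single-cell RNA was measured in lineage-depleted bone marrow cells of 3-month-old mice, sorted as Lin- Sca-1+ c-Kit+ (LSK), with 1 library of each genotype. The labels give the WT mice as Trmt6 fl/fl and the cKO mice as Trmt6 fl/fl with MX1-cre, while the study's outline of this experiment describes Trmt6 +/+ controls that also carried the recombinase, and pIpC injections in both. Trmt6 encodes the non-catalytic subunit of the enzyme that writes m1A on tRNA, and Mx1-Cre is an interferon-inducible recombinase whose inducer, pIpC, itself raises interferon. How many mice each library pooled is not given in the sources used here. Genotype and library cannot be told apart, no difference below has a replicate check, and the 95% intervals cover counting error only.

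Cytokine receptors in blood progenitors signal through the Janus kinases JAK1 and JAK2, which phosphorylate the transcription factors STAT3, STAT5A and STAT5B. Cish, Socs1, Socs2 and Socs3 are classic target genes of STATs, and their proteins bind receptors, kinases or their phosphorylated sites and damp the signal that induced them. Pim1, a serine/threonine kinase that promotes survival and growth, is another target of STAT5 and is also induced as part of the early response to stimulation.

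The genes lie at chr16:10782240-10785536 (Socs1, minus strand), chr10:95385362-95417180 (Socs2, minus), chr11:117966079-117970047 (Socs3, minus) and chr9:107296026-107302784 (Cish, plus) of GRCm38. Stat5b (chr11:100780731-100850724, minus), Stat5a (chr11:100859351-100885169, plus) and Stat3 (chr11:100885098-100939540, minus) are neighbours on 1 chromosome, and the 3′ ends of Stat5a and Stat3 overlap on opposite strands. Jak1 lies at chr4:101152367-101265282 (minus), Jak2 at chr19:29251828-29313080 (plus) and Pim1 at chr17:29490753-29496112 (plus). STAT dimers bind the interferon-gamma activated sequence TTCNNNGAA, a palindromic pattern that reads alike on both strands. It was searched in the RefSeq windows (GRCm38.p6) from 250 bases before to 50 bases after each start site. Of 32851 windows, 2726 held it (8.30%). The table had windows for 9 of the 10 genes, all but Socs2, and 2 of these 9 genes held the pattern. The 32851 windows covered 27025 genes and a gene can have several, so this count by gene is not on the scale of the share by window. The stretches around these matches are shown because they are the only copies of the pattern in the windows of the gene set, with the matches in capitals.
Socs3: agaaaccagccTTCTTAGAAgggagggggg
Cish: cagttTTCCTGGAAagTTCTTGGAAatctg
The Socs3 stretch is chr11:117969502-117969531 on the minus strand, and its match starts at position -154 from the start site. The Cish stretch is chr9:107296654-107296683 on the plus strand, and its matches start at positions 1 and 12, where 1 is the first transcribed base, so both lie just inside the transcript. Both stretches lie inside the gene spans given above, as the RefSeq start sites differ from the ends of those spans. A match is a description of letters, and binding was not measured.

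The kept data were 8145 WT cells with a median of 4157 UMIs and 8481 cKO cells with a median of 10025 UMIs, and 22 kept barcodes occurred in both libraries. Levels are UMIs summed over cells and scaled to the same total in each group of cells (CPM, the usual counts-per-million unit), and ratios are cKO over WT on the log2 scale with 0.5 counts added. The comparison covered the 9145 genes that reached 5 CPM in either library, with a median log2 ratio of -0.07 and 43.2% of them higher in cKO (52.8% to 53.1% under the 3 other scalings). Of these, 2.9% were at least 2-fold higher in the cKO library and 5.14% at least 2-fold lower. The targeted gene, Trmt6, was measured at 63.3 (WT) and 50.5 CPM (cKO), or -0.32 (-0.39 to -0.25) as a log2 ratio, and 3′ counting need not register the loss of a floxed exon. Of the sorting markers, Kit was at 63.2 and 21.7 CPM and Ly6a (Sca-1) at 34.6 and 140 CPM. The neutrophil markers, which an LSK gate should exclude, were lower in cKO for 10 of 10 genes, their sum going from 5828 CPM in WT to 7.98 CPM in cKO, where Mmp8 and Cd177 were at 0. GMP markers summed to 7948 and 1422 CPM (0 of 12 higher in cKO), HSC markers to 301 and 511 CPM (10 of 12 higher) and plasma cell markers to 82.8 and 609 CPM (7 of 8 higher), and the part of these in the levels over all cells was not tested.

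The 4 suppressors of cytokine signalling did not move as 1 group. Socs2, Cish and Socs1 were higher in the cKO library and Socs3 was lower, whereas the STAT, JAK and PIM genes were all modestly lower. Thus 3 of the 10 genes were at least 2-fold higher, beside 2.9% of all genes tested, and 1 was at least 2-fold lower, beside 5.14%. All 10 reached 5 CPM in at least 1 library, Socs2 and Cish only in cKO. Since the genes were chosen with these ratios known, nothing is read from the excess.

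**Figure D1:**
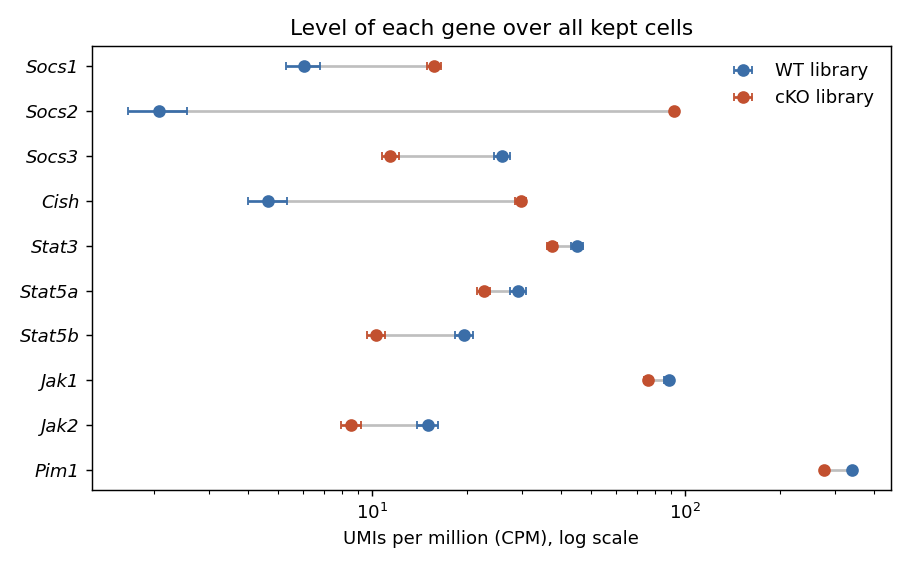
Level of the 10 genes in CPM over all kept cells (log axis) in the WT (blue) and cKO (red) library, with exact 95% Poisson intervals. Socs2, Cish and Socs1 lie to the right in cKO, Socs3 and the remaining 6 genes to the left, and Socs2 spans the widest distance, from 2.07 to 91.9 CPM.

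Socs2, an adaptor of a ubiquitin ligase best known for limiting growth hormone signalling, had 87 UMIs in WT (2.07 CPM, 1.66 to 2.56) and 7995 UMIs in cKO (91.9 CPM, 89.9 to 94.0). The log2 ratio was 5.46 (5.17 to 5.79), a 44.1-fold difference, and 99.8% of the genes tested had a lower ratio. Cish, the founding member of the family and a feedback inhibitor of STAT5, had a level of 4.64 CPM in the WT and 29.7 CPM in the cKO library, with a log2 ratio of 2.68 (2.47 to 2.90). In WT, Socs2 was found in 83 and Cish in 187 of the 8145 cells.

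Socs1, which binds JAKs directly and restrains interferon signals, gave 6.02 CPM in the WT and 15.8 CPM in the cKO library (log2 ratio 1.39, 1.19 to 1.59). Socs3, the main brake on signals from the shared receptor subunit gp130 and from the G-CSF receptor, went the other way, with 25.9 CPM in the WT and 11.4 CPM in the cKO library (-1.18, -1.31 to -1.06). Summed over the 4 suppressors, the level was 38.7 CPM (WT) and 149 CPM (cKO), most of the latter being Socs2.

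The STAT genes were lower in cKO beyond counting error in 3 of 3 cases, without any reaching 2-fold. How many of all genes tested were so was not counted, and 43.2% of them were higher in cKO. The share of genes tested with a lower ratio was 32.0% for Stat3, 25.04% for Stat5a and 5.78% for Stat5b. Stat3 was at 45.1 and 37.5 CPM in WT and cKO (log2 ratio -0.27, -0.35 to -0.19), Stat5a at 29.2 and 22.6 CPM (-0.37, -0.47 to -0.26) and Stat5b at 19.6 and 10.2 CPM (-0.94, -1.08 to -0.80). Stat5a and Stat5b are close paralogs that share runs of 60 bases near their 3′ ends, so the split of counts between them is uncertain, as is that between Stat3 and Stat5a where they overlap unless strand was used.

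Of the kinases, Jak1 was at 88.4 and 75.8 CPM in WT and cKO (log2 ratio -0.22, -0.28 to -0.16), and Jak2, which serves the thrombopoietin and erythropoietin receptors, was at 15.001 and 8.53 CPM (-0.81, -0.97 to -0.66). Pim1 was counted at 341 CPM (WT) and 278 CPM (cKO), a ratio of -0.29 (-0.32 to -0.26). Among the genes tested, 35.6% had a lower ratio than Jak1, 7.50% than Jak2 and 30.0% than Pim1. Pim1 thus did not follow Socs2 and Cish, with which it shares STAT5 as a known regulator.

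Detection in single cells was compared after every cell had been thinned to 2000 UMIs, which left 7942 WT and 8376 cKO cells. A Socs2 UMI was then found in 0.516% of WT cells (0.371 to 0.700) and in 17.2% of cKO cells (16.4 to 17.98), against 1.02% and 47.5% at full depth. For Cish the thinned shares were 1.08% and 5.69%, for Socs1 1.52% and 3.21%, and for Socs3 5.77% and 2.64%. Without thinning, the shares of Socs3 were 10.1% in WT and 9.90% in cKO, so the lower Socs3 level in cKO did not appear in shares at full depth. At full depth, 4026 of 8481 cKO cells had at least 1 Socs2 UMI and 2026 had 2 or more, the highest count was 13, and the top 1% of cells (85 cells) held 7.82% of the UMIs. Free RNA in the droplets can add UMIs to cells that do not express a gene, and its part in these shares was not tested. In GMP-like cells (described below), the named class of the 4 compared where Socs2 was lowest in cKO, the thinned cKO share was 1.63%.

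Clustering of both libraries together, with the pathway genes left out of the features, gave 18 clusters, of which 6 could be named from markers. Of the 4 named classes with at least 50 cells in each library, HSC-like cells (820 WT and 690 cKO, led by Pdzk1ip1 and Mllt3) stand for the stem cell end, LMPP-like cells (352 and 133, led by Wfdc17 and Dntt) for lymphoid-primed progenitors, megakaryocyte-like cells (603 and 365, led by Pf4 and Gp1bb) for the platelet lineage and GMP-like cells (832 and 612, led by Elane and Mpo) for granulocyte-monocyte progenitors. Their own markers differed between the libraries: the median log2 ratio of the class markers at 50 CPM or more was 0.47 in HSC-like, -0.84 in LMPP-like, -1.68 in megakaryocyte-like and -2.65 in GMP-like cells. The part of this difference in the ratios below was not tested.

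Among the 4 named classes of the main clustering, Socs2, Cish and Socs1 had their highest levels in HSC-like cells. Socs3 did so there only in cKO, but at resolution 1.2 in WT as well. With cells assigned by marker score, Socs2 in WT was instead higher in megakaryocyte-like (7.49 CPM) than in HSC-like cells (6.72 CPM). The levels that follow are those of the main clustering unless another setting is named. In cKO, Socs2 was at 225 CPM in HSC-like cells, 72.5 CPM in megakaryocyte-like, 56.8 CPM in LMPP-like and 7.23 CPM in GMP-like cells, the intervals of the middle pair overlapping. Its LMPP-like level in cKO was 17.8 CPM at resolution 1.2 and 12.3 CPM with the pathway genes left in the features. With cells assigned by marker score it was 42.7 CPM in LMPP-like and 31.3 CPM in GMP-like cells. In WT the order began in the same way, with 12.8 CPM in HSC-like and 8.82 CPM in megakaryocyte-like cells (overlapping intervals), 3 UMIs in GMP-like cells (0.333 CPM) and none in LMPP-like cells. Cish in cKO followed the order 81.8, 39.5, 13.5 and 5.25 CPM over the same classes, with no overlap between neighbours, and in WT ranged from 16.3 CPM in HSC-like to 1.996 CPM in GMP-like cells. Socs1 was also highest in HSC-like and lowest in GMP-like cells in both libraries (12.8 and 3.10 CPM in WT, 30.5 and 4.38 CPM in cKO), though in WT no neighbours in that order were apart beyond their intervals. Socs3 and Pim1 in WT were highest in LMPP-like cells, followed by HSC-like, megakaryocyte-like and GMP-like cells, with no overlap between neighbours. At resolution 1.2, HSC-like cells came first in WT instead. There Socs3 was at 57.5 CPM in HSC-like and 47.0 CPM in LMPP-like cells, and Pim1 at 432 and 429 CPM.

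**Figure D2:**
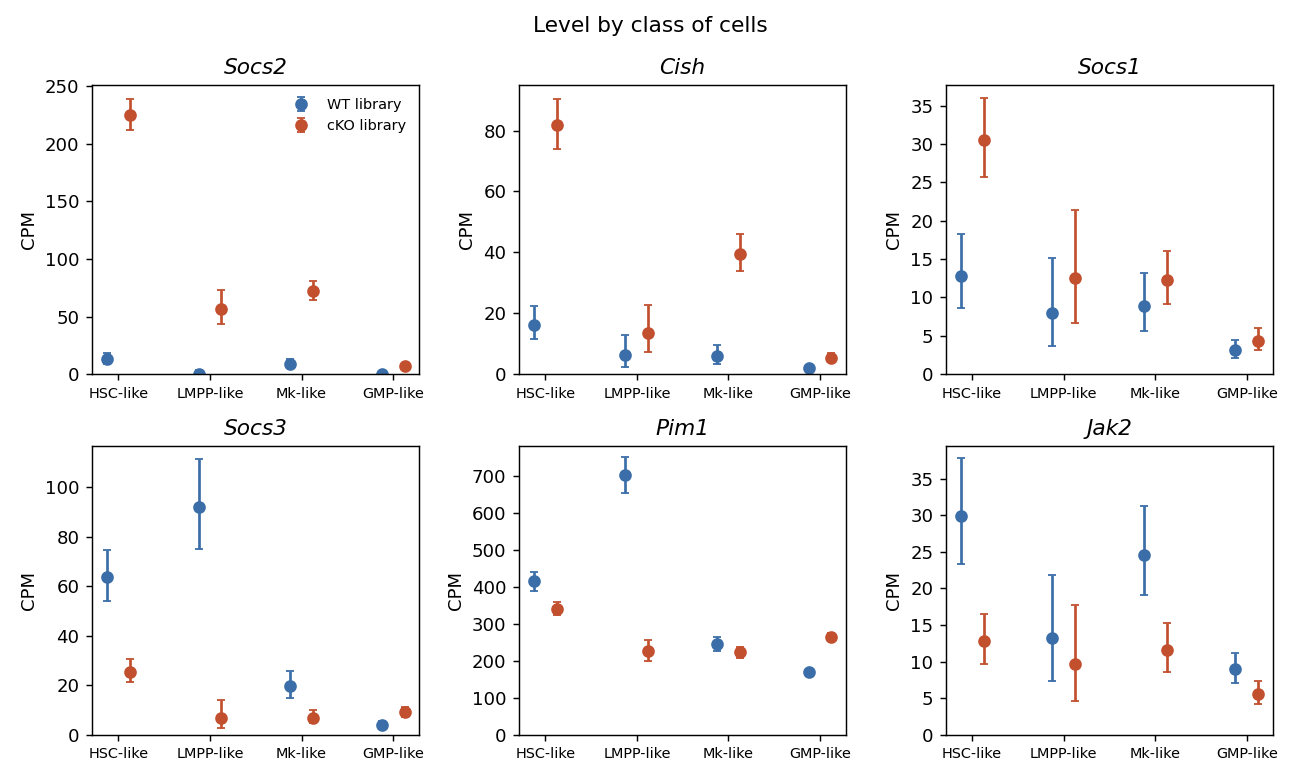
Level in CPM of Socs2, Cish, Socs1, Socs3, Pim1 and Jak2 in the 4 named classes, WT in blue and cKO in red, with exact 95% Poisson intervals and each axis starting at 0. In cKO all of Socs2, Cish and Socs1 are highest in HSC-like cells, and in WT Socs3 and Pim1 are highest in LMPP-like cells (in HSC-like cells at resolution 1.2, not drawn).

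In HSC-like cells the differences between the libraries resembled those over all cells: 3 of the 10 genes were at least 2-fold higher in cKO, beside 3.13% of the genes tested there, and 2 at least 2-fold lower, beside 8.68%. Socs2 had a log2 ratio of 4.11 (3.61 to 4.71), Cish of 2.32 and Socs1 of 1.23, the last being 0.97 at resolution 0.4 and 0.30 with cells assigned by marker score. The 2 lower genes were Socs3, at 63.7 (WT) and 25.5 CPM (cKO), and Jak2, at 29.9 and 12.8 CPM, with a ratio of -1.23 that was -0.87 by marker score. Jak1 (144 and 92.0 CPM), Stat3 (81.7 and 56.1 CPM) and Stat5a (40.2 and 26.4 CPM) were lower by less than 2-fold. Stat5b (24.0 and 12.99 CPM) had a ratio of -0.88, short of 2-fold, but passed 2-fold under each of the 4 other definitions of the class, with ratios from -1.36 to -1.02. After thinning, 2.43% of WT and 32.2% of cKO HSC-like cells held a Socs2 UMI, and GMP-like cells, where the gene was lowest of the 4 classes in cKO, gave 0 of 831 WT cells and 1.63% of cKO cells. For the former, 3 counts would be 0.361% and the exact interval reaches 0.443%, and at full depth the class held 3 Socs2 UMIs in WT. Median depths before thinning were 2736 and 6449 UMIs in HSC-like and 10544 and 14726 UMIs in GMP-like cells.

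LMPP-like cells had the lowest Socs3 ratio of the 15 clusters compared, -3.68 on the log2 scale, from levels of 91.9 CPM (WT) and 6.74 CPM (cKO). Pim1 was at 701 and 226 CPM in them (-1.63) and Stat5b at 34.5 and 6.74 CPM (-2.27, on 39 and 7 UMIs). Socs2 had no WT UMI and 59 cKO UMIs, 21.4-fold higher in cKO if WT is given 3 counts. Its exact log2 interval began at 4.08. Past 2-fold were 2 genes higher, beside 6.91% of genes tested in the class, and 3 lower, beside 12.5%. Socs2 entered this count only through cKO, where it was high. The second higher gene, Cish, had 7 and 14 UMIs and a log2 ratio of 1.07, which was 0.56 with the pathway genes left in the features. With cells assigned by marker score, the ratios in the class were -2.67 for Socs3, -1.21 for Stat5b and -0.93 for Pim1, and with those genes left in that of Socs2 was 3.30. The LMPP markers themselves summed to 4635 CPM in WT and 1163 CPM in cKO in these cells, and the immediate early genes described below to 12818 and 1962 CPM.

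In megakaryocyte-like cells 2 genes were at least 2-fold higher, Socs2 (8.82 and 72.5 CPM) and Cish (5.88 and 39.5 CPM), beside 3.09% of genes tested, and 2 at least 2-fold lower, Socs3 (19.8 and 6.93 CPM) and Jak2 (24.6 and 11.6 CPM), beside 9.6%. By marker score the Socs3 ratio in the class was -0.76 in place of -1.51, under 2-fold. GMP-like cells departed from this pattern. There Socs3 was higher in cKO, at 3.88 and 9.20 CPM (log2 ratio 1.23), and so was Pim1, at 169 and 264 CPM (0.65), while Socs2 had 3 and 66 UMIs (4.23 on the log2 scale) and Cish was at 1.996 and 5.25 CPM. With cells assigned by marker score instead, the ratios in GMP-like cells were -0.37 for Socs3, the opposite direction, and 0.14 for Pim1, while Socs1 was at 1.39 in place of 0.49 and Cish at 2.23 in place of 1.37. In all, 3 of 9 genes tested in GMP-like cells were at least 2-fold higher, beside 4.36%, and 0 lower, beside 5.5%. The 3 higher genes reached 5 CPM only in cKO and Socs1 reached it in neither library, so these genes entered only through the library in which they were high and nothing is read from the count. Neutrophil markers summed to 4268 CPM in WT and 42.8 CPM in cKO in these cells, with 1 of 10 higher in cKO. Their part in the Socs3 and Pim1 ratios was not tested.

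Over the 15 clusters with at least 50 cells in each library, Socs2 was higher in cKO in 15, each beyond counting error. In the 11 clusters with a WT UMI the lowest log2 ratio was that of megakaryocyte-like cells (3.01). In the 4 without one the lower ends of the log2 intervals ran from 0.55 to 4.08. Cish was higher in 15 (13 beyond counting error) and Socs1 in 14 (8 beyond). Socs3 was lower beyond counting error in 12 and higher in 1. Among the others, Jak1 was lower in 11, Pim1 in 10, Stat3, Stat5b and Jak2 in 8 each and Stat5a in 6, all beyond counting error. The clusters share their 2 libraries, so they do not replicate the genotype.

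**Figure D3:**
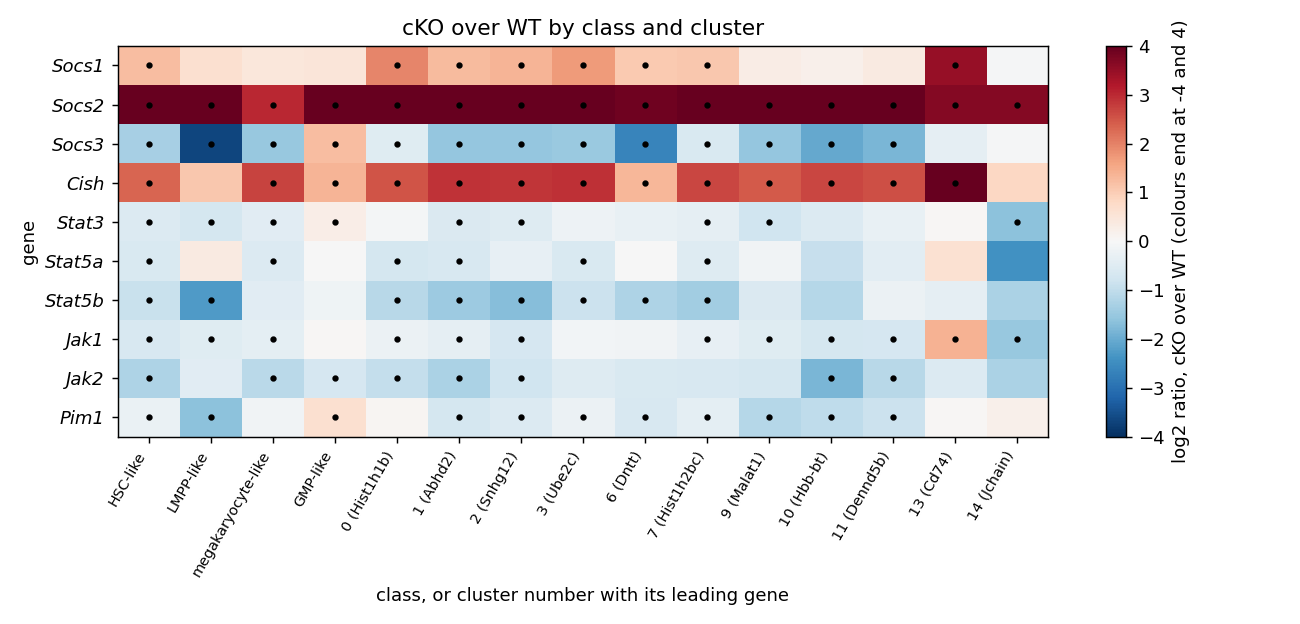
log2 ratio, cKO over WT, of each gene (rows) in the 15 clusters with at least 50 cells in each library (columns, class name or cluster number with its leading gene), red for higher and blue for lower in cKO, and a dot where the 95% counting interval excludes 0. The Socs2 and Cish rows are red throughout, and the Socs3 row has blue with a dot in 12 clusters and red with a dot only in GMP-like cells. Colours end at -4 and 4, and where WT had no UMI (Socs2 in 4 of the clusters, Cish in 1) the colour rests on the added 0.5 counts.

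Cluster 13 held a separate Socs1 and Jak1 pattern. It counted 59 WT and 183 cKO cells, was led by Cd74, H2-Aa and Ccl5 and kept no name, since it held supporting markers of monocytes or dendritic cells and of T or NK cells. Socs1 was at 16.8 CPM there in WT (4 UMIs) and 211 CPM in cKO (123 UMIs), and Jak1 at 79.7 and 215 CPM. Cish had no WT UMI and 68.7 CPM in cKO, with a log2 interval that began at 2.08. The T or NK cell markers were higher in cKO for 11 of 11 genes in this cluster, their sum going from 1280 to 2558 CPM with Cd3e at 0 in WT, whereas monocyte or dendritic cell markers summed to 25447 and 13519 CPM. Their part in the Socs1 and Jak1 ratios was not tested. The cluster held 1.58% of the Socs1 UMIs in WT and 8.97% in cKO, and without it the log2 ratio of Socs1 over the remaining cells was 1.27.

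Levels were also compared by cell cycle phase, called on thinned cells. In WT, Socs3 was at 49.1 CPM in G1, 18.6 CPM in S and 8.15 CPM in G2/M cells, and Pim1 at 508, 280 and 219 CPM. In cKO the same genes were at 14.6, 10.2 and 7.30 CPM and at 313, 270 and 230 CPM. Socs3 in G2/M cells thus had overlapping intervals in the 2 libraries (6.82 to 9.65 and 6.33 to 8.37), and the intervals were apart in G1 and S cells. Socs2 was higher in cKO in each phase, at 4.02 and 101 CPM in G1, 1.48 and 77.6 CPM in S and 0.612 and 87.9 CPM in G2/M cells.

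The other genes of the pathway were grouped by role. Among 61 other listed genes, 53 reached 5 CPM in a library, of which 4 were at least 2-fold higher and 2 at least 2-fold lower, beside 2.9% and 5.14% of all genes, with a median log2 ratio of -0.17, beside -0.07 over all genes tested. Id1 and Epor, counted as higher, reached 5 CPM only in cKO, and Il6st, counted as lower, only in WT. Nothing is read from these counts. None of Socs4, Socs5, Socs6 and Socs7 passed 2-fold, Socs5 having the largest ratio (3.88 and 6.73 CPM, 0.79). The kinase genes Jak3, at 12.5 and 11.7 CPM (-0.09), and Tyk2, at 6.31 and 5.20 CPM (-0.28), did not pass 2-fold either. The 10 other brakes, which include the phosphatases Ptpn1, Ptpn2 and Ptpn6, the PIAS genes and Sh2b3, a brake on the thrombopoietin receptor, ran from -0.77 to 0.49 and 0 passed 2-fold.

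Of 16 cytokine receptor genes 12 were compared, 1 being higher and 2 lower past 2-fold, beside the same 2.9% and 5.14%. Il6ra, the IL-6 receptor, was at 20.7 (WT) and 5.001 CPM (cKO), a log2 ratio of -2.05, and Il6st, which encodes gp130, at 8.501 and 3.78 CPM (-1.17). Epor, the erythropoietin receptor, was at 3.14 and 6.50 CPM (1.04), but at 0.11 (-0.69 to 0.99) in HSC-like and 0.90 (0.45 to 1.38) in megakaryocyte-like cells. Epor thus entered the comparison only through cKO, and Il6st only through WT. By class, Il6ra was at -1.26 in HSC-like and -1.80 in GMP-like cells, and Il6st at -0.69 (-1.67 to 0.34) and -1.62.

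Among 13 other genes known as STAT targets, 11 were compared, 3 were at least 2-fold higher and 0 lower, beside 2.9% and 5.14% of all genes, and the median was 0.61. Id1, an inhibitor of differentiation factors, was at 4.36 (WT) and 33.3 CPM (cKO), with a ratio of 2.93, Ccnd1, which encodes cyclin D1, at 13.2 and 43.8 CPM (1.73) and Bcl3, an IkB family member, at 6.17 and 16.6 CPM (1.42). Id1 thus entered the comparison only through cKO. In megakaryocyte-like cells the ratios of Ccnd1 (0.13, -0.34 to 0.62) and Bcl3 (0.35, -0.55 to 1.37) were within counting error, and Bcl3 was at 0.78 in HSC-like cells. The survival gene Mcl1 was lower, at 73.7 and 43.1 CPM (-0.77), as was Osm, at 18.7 and 10.7 CPM (-0.81), so the targets did not share a direction. These genes also answer to other pathways.

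The interferon response list, 10 of whose 12 genes were compared, had a median of -0.17 with 0 genes past 2-fold, and its sum was 400 CPM in WT and 401 CPM in cKO. Its genes did not move alike, with ratios from -0.65 to 0.39. Beyond counting error 6 were lower and 1 higher, so the near-equal sums do not describe the single genes. The immediate early list differed throughout, with 26 of 26 genes compared lower in cKO beyond counting error. That share was not counted over all genes tested, of which 43.2% were higher in cKO. At least 2-fold lower were 21 of the 26, beside 5.14% of all genes. Some of them, among them Ccl3 and Atf3, reached 5 CPM only in WT, where they were high. The list had a median of -2.09 and a sum of 6656 CPM in WT and 1598 CPM in cKO. Ccl3 had the lowest ratio (-5.68), followed by Ccl4 (-3.99), Jun (-3.34) and Atf3 (-2.83). Socs3 and Pim1 are themselves inducible within the early response, and the part of this list's difference in their ratios was not tested. The list summed to 11389 and 2490 CPM in HSC-like cells and to 3128 and 1397 CPM in GMP-like cells.

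**Figure D4:**
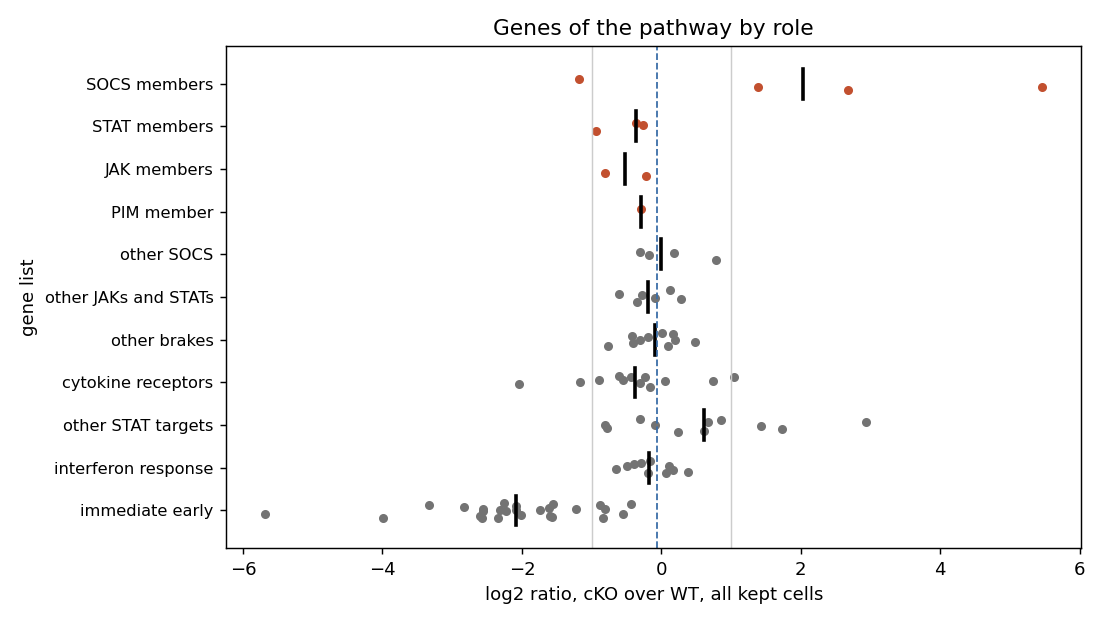
log2 ratio, cKO over WT, over all kept cells for the genes that reached 5 CPM in either library, 1 dot per gene, by role in the pathway (red for the 10 genes of the set, grey for the others), with a black bar at each list's median, grey lines at 2-fold and a dashed line at the median of all genes tested (-0.07). The SOCS genes of the set span -1.18 to 5.46, and all immediate early genes lie below 0.

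Likeness across the 15 clusters was ranked by the lower of the Pearson correlations of log2(CPM + 5) within each library, over 4657 genes that reached 20 CPM in both, as a description of points that share libraries and depth. The genes most like Socs2 were Gstm5 (r = 0.77 in WT and 0.79 in cKO), Hnrnph3 and Isca1, and those most like Cish were Gbp7 (0.89 and 0.79), Swt1 and Eif4a2. Of the 87 WT UMIs of Socs2, 30 were in HSC-like and 24 in megakaryocyte-like cells. Its WT correlations therefore rest mainly on these classes against clusters near the floor. Socs1 was followed by Gabarapl2, Btg1 and Klf6, Socs3 by Saraf, Klhl6 and Txnip, and Pim1 by Notch2, Zscan26 and Lrrc8a.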

How the data were processed

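UMI counts per gene and barcode of 2 libraries, 1 per genotype as titled in the labels, were deposited by the authors, who made them with Cell Ranger 6.0.0 on mm10 per the submitters' processing notes. Reads were not analysed. Gene coordinates are from GENCODE M21 (GRCm38), matched by gene ID.

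Barcodes were kept with over 200 genes, under 4000 genes and 10% mitochondrial UMIs in WT, under 4500 genes and 5% in cKO, and under 5% hemoglobin UMIs, the limits of the study. Likely doublets were removed by nearest neighbours of simulated doublets at 0.8% per 1000 barcodes (618 WT and 670 cKO cells). The libraries held 47991455 (WT) and 98323201 (cKO) UMIs, of which 41996471 and 86978135 were in kept cells, so intervals are wider in WT. Clusters came from Seurat 5.3.0 with sctransform 0.4.2 in R 4.3.3 (regressing out the mitochondrial share and the difference of the S and G2/M scores, with anchors over 3000 features, 30 dimensions and a resolution of 0.8). A cluster was named where most leading genes (top 10 by fold at 50 CPM or more) among markers belonged to 1 type, 3 or more markers of that type exceeded a log2 fold of 1, and any other type had at most 50% as many such markers. The last condition was added after the clusters were seen. Phases were called on cells thinned to 2000 UMIs.

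Exact intervals (scipy 1.17.1) were Clopper-Pearson for shares, Poisson for CPM and, for ratios, binomial conditional on the summed counts. With 1 library per group no test was possible. The ratio code was checked on simulated counts. The genes, lists, markers and naming rule were chosen with earlier results of these data known. Besides the 10 genes, the text names at most 4 genes per list past 2-fold, and the 3 genes most like each SOCS gene of the set and Pim1. Socs4 to Socs7, Jak3, Tyk2, Mcl1, Osm and the genes that name a list's content were named after their values were seen. Alternatives were other scalings (TMM from edgeR 4.0.16, median of ratios, and a total that leaves out mitochondrial and ribosomal protein genes), filters, thresholds, resolutions, thinning and class definitions, and leaving out clusters. Leaving out cluster 13 was chosen after the data were seen. Some results on single genes of the lists are not reported here.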

Additional observations from a re-analysis of the deposited data

Results flagged for a closer look

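The 4 results here were noted because a gene moved one way in 1 cluster and the other way in others, each beyond counting error. The differences between clusters were not tested, as each rests on 1 library per genotype. Socs3 had a log2 ratio of 1.23 in GMP-like cells and was lower in cKO in 12 clusters. By marker score its ratio in GMP-like cells was -0.37. In GMP-like cells Stat3 had a ratio of 0.26, against 8 clusters in which it was lower, and 0.05 by marker score. Pim1 was at 0.65 in the same cells, 0.14 by marker score, and lower in 10 clusters. Jak1 stood at 1.40 in cluster 13, where T or NK cell markers were higher in cKO for 11 of 11 genes, and was lower in 11 clusters.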

How the results depend on the processing

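Over all cells, none of the 10 genes changed direction under any of 10 alternatives, among them 3 other scalings, other filters, cells scaled singly and the same mix of clusters. The log2 ratio ranged from 5.16 to 5.56 for Socs2, 2.44 to 2.77 for Cish, 1.14 to 1.49 for Socs1, -1.44 to -1.09 for Socs3, -1.03 to -0.84 for Stat5b, -0.99 to -0.72 for Jak2, -0.45 to -0.27 for Stat5a, -0.46 to -0.17 for Stat3, -0.42 to -0.12 for Jak1 and -0.50 to -0.20 for Pim1. Of the 10 ratios, 3 moved beyond counting error under each other scaling, 4 with the same mix of clusters, 5 with cells scaled singly and 6 with thinning. The count of genes at least 2-fold lower went from 1 to 2 with cells scaled singly, with the same mix of clusters and with thinning to 2000 UMIs, and to 3 at a fold of 1.5. Among the other pathway genes, 2 were higher and 1 lower with a minimum of 20 CPM, and 5 were lower with a minimum of 1 UMI. With all UMIs in place of thinned cells, the share of cells with a UMI was higher in cKO beyond counting error for 8 genes and lower for 0, as the cKO library is deeper. With cells assigned by marker score, the Socs3 ratio in GMP-like cells was reversed (-0.37) and 1 gene, Jak2, was 2-fold lower in megakaryocyte-like cells. With pathway genes left in the features, 1 gene was 2-fold higher in LMPP-like cells. The cause of these shifts between class definitions was not tested. Of 130 ratios by class, 116 stayed within counting error, 13 moved and 1 reversed. These leave out LMPP-like and megakaryocyte-like cells at resolution 0.4 and megakaryocyte-like cells with pathway genes left in, as no cluster took those names there. No paired analysis was possible because each group had 1 library. Counts of a few UMIs per class limit Socs1, Socs2 and Cish in WT, and genotype cannot be told apart from library, depth or sorting.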
